A study of Pinus pinaster with 18 samples.

Results

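The transcripts described here were higher in the pre-cotyledonary than in the early cotyledonary zygotic embryos of maritime pine (Pinus pinaster), while their mean level differed little between the stages of cultured somatic embryos. They numbered 150 of the 287424 transcripts in the count table. They were chosen on the CPM scale, in which each count is divided by the total of its library and multiplied by 1000000. The mean in pre-cotyledonary zygotic embryos had to reach 10 CPM, and each of those libraries had to lie above each early cotyledonary library. The means of the 3 somatic stages had to stay within 1.5-fold of each other after adding 1 CPM. Of the 12071 transcripts with the required mean level, 4093 also met the separation of the zygotic stages and 1130 were also steady in somatic embryos. The 150 with the highest (PC + 1)/(EC + 1) ratio were taken. The fall from PC to EC and the flat somatic profile were therefore selected, and both are described here without a test.

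Conifer seeds hold an embryo that first forms a cylindrical body and then a ring of cotyledons around the shoot apex. Somatic embryogenesis copies this course in culture from embryogenic tissue, with abscisic acid and reduced water availability used to promote maturation. Cytokinin, a hormone of cell division and shoot formation, is perceived in Arabidopsis by membrane histidine kinases that carry an outward-facing CHASE domain. They pass phosphate through phosphotransfer proteins to response regulators in the nucleus. Isopimaradiene synthase makes the olefin from which conifers derive isopimaric acid, a constituent of oleoresin.

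Somatic embryos came from the single embryogenic line PN519, matured in the dark at 24 °C. The maturation medium held 68 g/L sucrose, 9 g/L of the gelling agent Phytagel and abscisic acid at 80 µM. They were taken as translucent early-stage embryos after 4 to 6 weeks (ES1), opaque pre-cotyledonary embryos after 6 to 10 weeks (ES2) and cotyledonary embryos after 12 to 14 weeks (ES3). Zygotic embryos were excised from seeds of 1 seed orchard at the pre-cotyledonary (PC, early to mid-July), early cotyledonary (EC, mid to late July) and cotyledonary (C, early August to early September) stages. Each of the 6 groups had 3 libraries, lettered A to C for somatic and numbered 1 to 3 for zygotic embryos. Embryo type, genotype, culture medium and harvest cannot be told apart in this design. In bulk samples, fewer cells of a type and less RNA per cell cannot be told apart either.

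Library totals ran from 22725467 to 43510184 counts in ES1, ES2, ES3, PC and EC, and from 74949347 to 89590401 in C. In C only 70.4 to 70.8% of the counts fell on the 23118 transcripts kept for testing, against 99.6 to 99.8% elsewhere, and the trimmed-mean (TMM) scaling factors of C were 0.422 to 0.428. Plain CPM of C are thus low for most transcripts, and TMM-scaled values are given beside CPM for the main comparisons with C. Values of single libraries are plain CPM unless the TMM scale is named. ES3 replicate C stood apart from its group, as its counts differed from replicates A and B by 145 to 156 times the sampling variance (chi-square over its degrees of freedom), and by 12.5 to 70.3 times in the other pairs within groups. Of the marker lists, 21 dividing-cell transcripts summed to 1837 to 2063 CPM in PC, 1034 to 1249 in EC and 32.7 to 41.4 in C. In the somatic libraries they summed to 819 to 1023 in ES1, 391 to 453 in ES2 and 208 to 332 in ES3. The 65 seed maturation transcripts summed to 4128 to 4437 CPM in PC, 4508 to 5153 in EC, 4045 to 4400 in C and 8515 to 13564 in somatic libraries. The 3 green-tissue ones summed to 0.787 to 1.38 CPM in C and 7.38 to 15.3 elsewhere. The root cap gene BEARSKIN1 had at most 0.288 CPM in zygotic and 6.53 to 20.9 in somatic libraries. The pair of cotyledon boundary transcripts summed to 90.4 to 119 CPM in PC, 50.4 to 60.2 in EC, 4.24 to 5.22 in C and 10.2 to 21.4 in somatic libraries. These sums are plain CPM and were not taken on the TMM scale, so those of C cannot be set directly beside the other groups. None of these marker transcripts was a member, and their part in the members' levels was not tested.

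Across the members, the median of the group means was 32.0 CPM in PC, 19.6 in EC and 2.75 in C, against 19.1 in ES1, 14.8 in ES2 and 13.9 in ES3. After TMM scaling the medians were 22.6 in PC, 14.8 in EC, 9.17 in C, 15.5 in ES1, 13.7 in ES2 and 14.7 in ES3, so C lay much closer to the other groups. Together they took 1.52 to 1.75% of all counts in PC, 1.04 to 1.17% in EC and 0.166 to 0.184% in C. The share in somatic libraries was 1.16 to 1.18% in ES1, 1.03 to 1.08% in ES2 and 0.803 to 0.976% in ES3. With TMM scaling their sum was 1.07 to 1.26% of the scaled total in PC, 0.795 to 0.858% in EC and 0.549 to 0.618% in C. PC had the highest mean CPM of the 6 groups for 121 members, ES1 for 17, ES2 for 6 and ES3 for 6. By TMM-scaled means PC was highest for 101, ES1 for 16, ES2 for 9, ES3 for 13 and C for 11. The selected ratio of PC to EC was modest. It ran from 1.40 to 3.95 with a median of 1.52, and 17 members reached a ratio of 2.

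**Figure D1:**
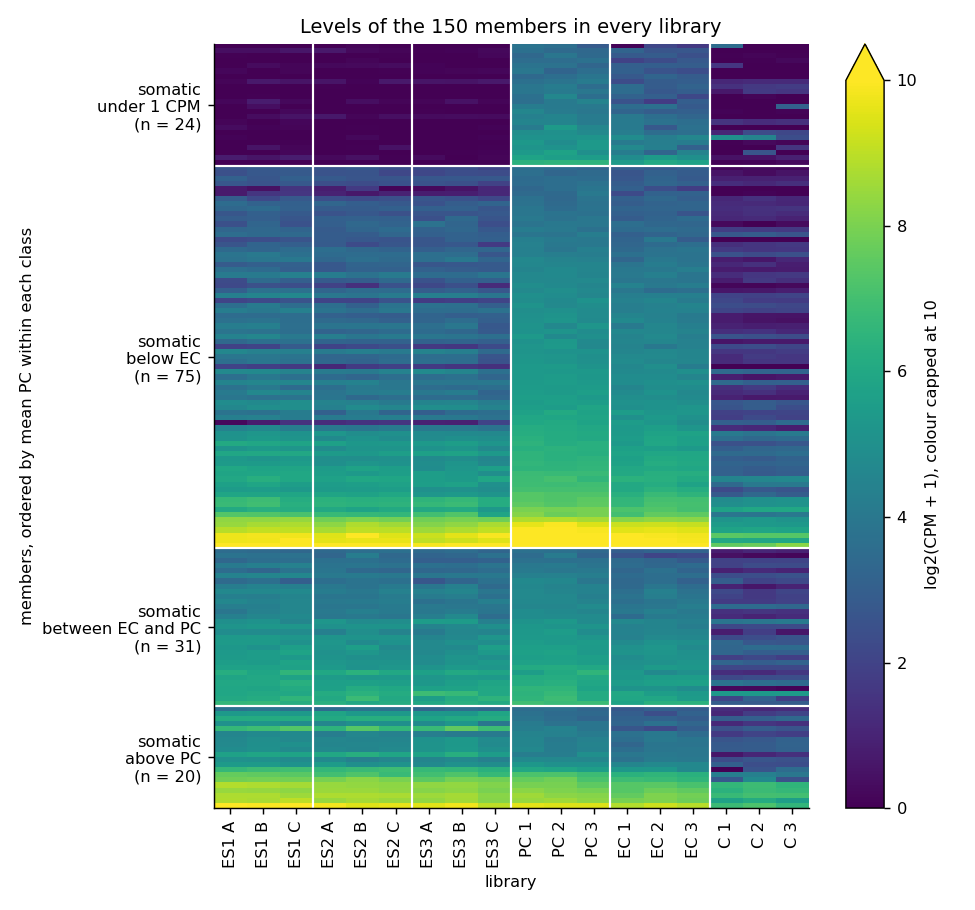
Each row is a member and each column a library, with colour giving log2(CPM + 1), and rows are grouped by the somatic mean relative to EC and PC. PC has the highest mean CPM in 121 of the 150 rows, and the 24 rows of the top block are dark in all 9 somatic libraries.

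The limits of the selection cut through a continuous distribution. The last member taken, ppt_159676, had a ratio of 1.4011 and the next transcript, ppt_93057, one of 1.4006. On steadiness, the member closest to the limit, ppt_142619, had 1.498, and the nearest transcript outside, ppt_124378, had 1.5004. On level, ppt_177764 had a mean of 10.2 CPM in PC and ppt_254340, just outside, 9.99 CPM. On the TMM scale 136 members still had every PC library above every EC library and 142 kept a somatic ratio of 1.5 or less, and 130 met both.

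Steady did not mean one common level in somatic embryos. On the CPM scale the somatic mean lay under 1 CPM for 24 members, below the EC mean for a further 75, between the EC and PC means for 31 and above the PC mean for 20. In 105 members (against 33.3% of all kept transcripts) every somatic library lay below every PC library, and in 7 (against 18.7%) every one lay above. Against EC, 63 members had every somatic library below every EC library (against 27.1%) and 25 had every one above (against 16.1%). TMM scaling changed these counts to 84 (against 21.8%) and 19 (25.1%) against PC, and 53 (18.6%) and 38 (21.4%) against EC. The rule used the PC and EC levels, so nothing is read from these shares. On the TMM scale the somatic mean lay below EC for 85 members, between EC and PC for 27 and above PC for 38. The 85 include members under 1 CPM, so they cannot be set against the 75 of the CPM scale. Small shifts remained within the steady limit. ES1 was the highest somatic stage for 114 members and ES3 for 11 on the CPM scale, but for 67 and 50 on the TMM scale, so no order of the somatic stages is read from the members.

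**Figure D2:**
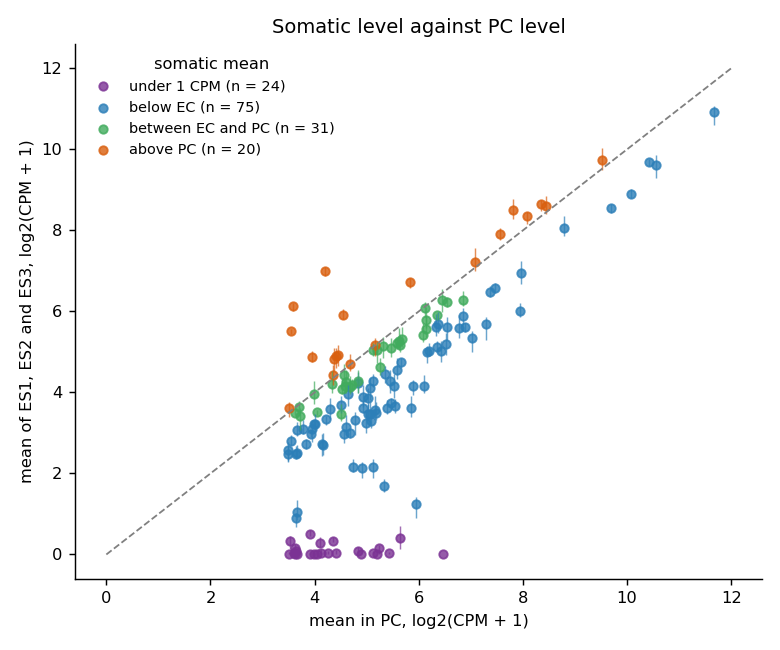
Each point is a member, with its mean in PC on the horizontal axis and the mean of ES1, ES2 and ES3 on the vertical axis, both as log2(CPM + 1). Vertical lines span the lowest to the highest of the 3 somatic stage means and the dashed line marks equal levels. The 24 members under 1 CPM lie along the bottom and 20 members lie above the dashed line.

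Protein names were found for few members. The study's supplementary tables list 37 of the 150, and 11 of them carry an informative name. No sequence or annotation was used here for the remaining members, which are given by identifier.

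The named members with the most transcripts were receptors of cytokinin, all within 1 run of identifiers. Of the 5 transcripts in the tables named as cytokinin receptor-type histidine kinases, 4 were members, all highest in PC, intermediate in EC, lower in the 3 somatic stages and lowest in C. The tables name ppt_230276, ppt_230278 and ppt_230281 after a moss CHASE-domain histidine kinase 3, and ppt_230279 after a mulberry histidine kinase 2. The remaining one, ppt_230280, met the zygotic criteria but missed the steady limit with a somatic ratio of 1.55. The 2 unnamed members ppt_230277 and ppt_230282 carry identifiers inside the same run. Transcripts with adjacent identifiers in this assembly may be variants of 1 gene that share reads, so these 6 members cannot be counted as 6 genes.

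In the 3 PC libraries, ppt_230276 stood at 163, 152 and 151 CPM, and in EC at 78.1, 108 and 90.6 CPM. The 3 ES1 libraries gave 57.1, 55.9 and 57.3 CPM, ES2 gave 56.8, 53.5 and 61.9 CPM, and ES3 gave 37.7, 41.3 and 35.5 CPM. The C libraries gave 6.12, 9.28 and 6.79 CPM. On either scale, no library of PC, EC, the somatic embryos or C overlapped those of another of these 4 sets. The means were 155 ± 6.59 CPM in PC, 92.2 ± 14.97 in EC and 7.39 ± 1.66 in C (SD, n = 3).

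The other named receptors kept the same order at other levels. The transcript ppt_230278 averaged 58.3 ± 1.19 CPM in PC, 34.9 ± 5.46 in EC, 14.3 ± 1.45 in ES3 and 3.10 ± 0.59 in C (SD, n = 3). For ppt_230281 the means were 43.4 ± 0.62 CPM in PC, 26.4 ± 3.24 in EC, 10.8 ± 0.56 in ES3 and 1.78 ± 0.51 in C. For ppt_230279 they were 22.7 ± 0.79 CPM in PC, 14.9 ± 2.26 in EC, 5.74 ± 0.35 in ES3 and 1.19 ± 0.41 in C. In all 3, every somatic library lay below every EC library and above every C library on the CPM scale. On the TMM scale ppt_230279 overlapped, with 5.30 in ES1 replicate A against 5.45 in C replicate 2.

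**Figure D3:**
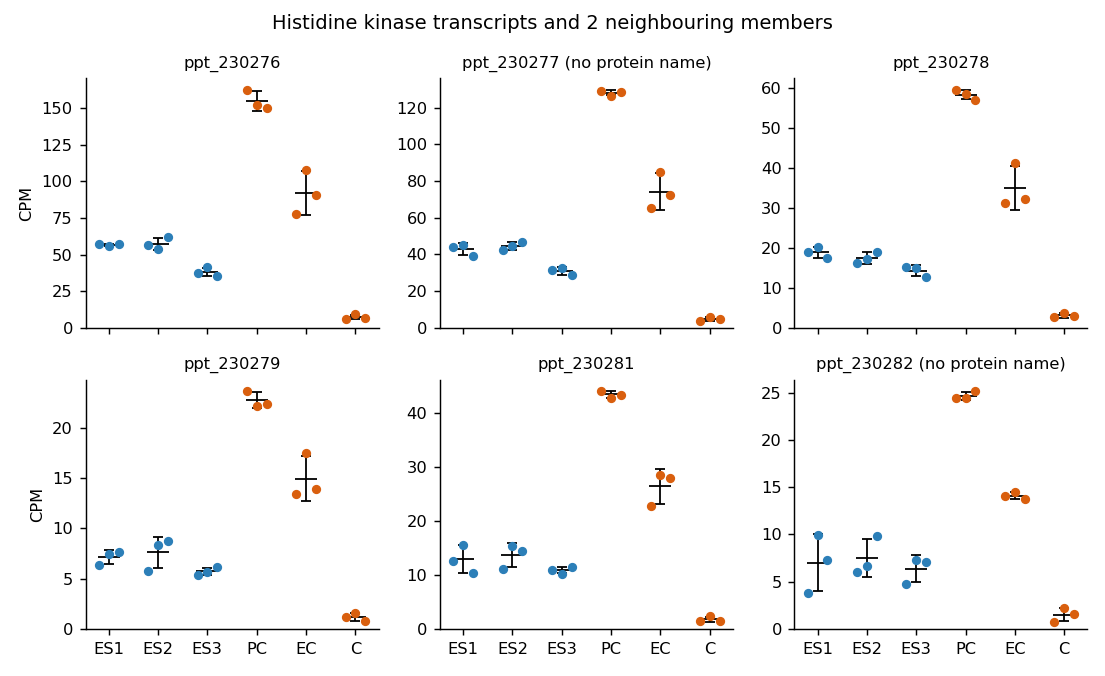
Points are single libraries (blue somatic, orange zygotic), with CPM on the vertical axis from 0, and black bars give the mean ± SD of 3 libraries. Panels show the 4 histidine kinase members and the 2 unnamed members of the same identifier run. On this scale PC is highest and C lowest in every panel, with the 9 somatic libraries between C and EC.

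On the TMM scale the distance of ES3 from C was small for these receptors. It was tested across all kept transcripts with edgeR's quasi-likelihood test and Benjamini-Hochberg adjustment, and a transcript was called when its log2 fold change exceeded 1 in size with the adjusted p below 0.05. The log2 fold change of ES3 over C was 0.73 ± 0.14 (SE) for ppt_230276, with an adjusted p of 0.000275 from edgeR. The 3 other named receptors had log2 fold changes of 0.56, 0.64 and 0.97. None of the 4 passed the fold limit, and with library totals as the only scaling all 4 did, at 1.70 to 2.10. The unnamed ppt_230277 was called higher in ES3, at 1.04 ± 0.13 (edgeR adjusted p 5.02e-06), whereas ppt_230282 had 0.46 ± 0.35.

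Other steps of cytokinin signalling were thinly covered by the tables. The single phosphotransfer transcript, ppt_204218, averaged 6.01 CPM in PC, 4.40 in EC, 1.23 to 1.74 in the somatic stages and 0.0356 in C. The cytokinin-activating phosphoribohydrolase ppt_66327 had 0.146 CPM in PC, 0.788 in EC and 3.12 to 4.998 in the somatic stages. That order was opposite to the receptors', but C was again lowest, with no count. Both type-B response regulators listed by the study, ppt_126091 and ppt_126093, were under 0.5 CPM in every group mean and did not pass the filter on low counts. The paper, which kept transcripts at 2 CPM in at least 6 samples, describes a type-B regulator as a main regulator of its network. Whether the 2 listed identifiers match that gene in the count table could not be checked, so its expression is not read from them. The transcripts of this paragraph were named after the receptors' values were seen.

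Both members named isopimaradiene synthase had no count in any of the 9 somatic libraries. The more abundant of them, ppt_132647, stood at 85.6, 89.1 and 87.6 CPM in PC and at 43.9, 64.8 and 54.7 CPM in EC. It fell to 0.0514, 0.0558 and 0.187 CPM in C. The second, ppt_45280, had 9.66, 11.3 and 13.8 CPM in PC, 5.86, 8.30 and 6.51 CPM in EC and no count in C or in somatic embryos. Their flat somatic profile is that of transcripts not detected, where a count of 0 allows up to 0.0689 to 0.132 CPM per library (3 counts, covering counting error only). Against a floor of 3 counts over the 9 somatic libraries, ppt_132647 was at least 6952-fold and ppt_45280 at least 923-fold higher in PC on the TMM scale.

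In ES3 against C, ppt_132647 was called lower in ES3 (edgeR adjusted p 0.000302), at least 11.9-fold on the TMM scale and the floor of the ES3 libraries. That call rests on a few counts in C, at 0.0514, 0.0558 and 0.187 CPM. A single ES3 library had a floor of 0.0689 to 0.0889 CPM. The other, ppt_45280, could not be compared with both groups at 0. The tables name a pair of further pimaradiene-type synthases that were not members. One, ppt_129836, averaged 23.3 CPM in PC, 13.4 in EC, 0 in C and at most 0.263 in the somatic stages, and its PC and EC libraries overlapped. The other, ppt_155132, averaged 7.94 CPM in PC, 5.46 in EC and 1.64 in C, had no somatic count and missed the required PC level. Among the 34 terpenoid transcripts with a name, these 2 members were the only ones to meet the zygotic criteria, and 15 had every PC library below every EC library. In ES3 against C 7 were called higher and 7 lower, against 29.9% and 15.1% of all kept transcripts.

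The sugar enzyme aldose 1-epimerase, which interconverts the ring forms of aldoses such as glucose, was high in every stage but C. The transcript ppt_93791 stood at 93.2, 93.2 and 54.5 CPM in PC and 34.5, 34.4 and 27.8 CPM in EC. Its 9 somatic libraries ran from 49.9 to 70.8 CPM with a median of 59.6, all above EC and overlapping PC 3. In C it was nearly gone, with 0.206, 0.156 and 0.0801 CPM. It was among the 3 members with the highest log2 fold change of ES3 over C, at 6.90 ± 0.32 (edgeR adjusted p 1.69e-10). The neighbouring unnamed member ppt_93787 had a like profile, with 12.0 ± 4.40 CPM in PC, 3.99 ± 0.91 in EC, 9.91 ± 2.06 in ES3 and 0.231 ± 0.116 in C (SD, n = 3). Its log2 fold change of ES3 over C was 3.80 ± 0.42 (edgeR adjusted p 9.57e-07).

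The exostosin-like transcript ppt_250365, of a family of glycosyltransferases that in plants act on cell wall and matrix polysaccharides, was zygotic and early. It had 10.9, 10.8 and 12.3 CPM in PC, 2.95, 3.95 and 5.96 CPM in EC and 0, 0.0446 and 0.160 CPM in C. In somatic embryos 8 of 9 libraries had no count, and ES2 replicate B had 0.104 CPM. It was called lower in ES3 than in C (edgeR adjusted p 0.0111), at least 8.29-fold on the floor of the ES3 libraries. That call rests on a few counts in C, and its adjusted p ran from 2.11e-05 to 0.0766 among the alternatives.

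Another pattern, with the highest mean in ES3 on either scale, was shown by the ATPase family AAA domain-containing 1-A transcripts ppt_97782, ppt_97783 and ppt_97784. In yeast and animals proteins of this family extract misplaced tail-anchored proteins from the outer membrane of mitochondria. In ppt_97782 the somatic libraries ran from 22.3 to 40.0 CPM, the PC libraries were at 24.3, 17.2 and 20.8 CPM, and the EC libraries at 11.3, 14.1 and 14.6 CPM. C had 6.23, 6.50 and 7.75 CPM. On the CPM scale the somatic and PC libraries overlapped, EC lay below both and C below EC. The order of the zygotic stages turned on the TMM scale, with 20.6, 21.9 and 25.8 in C, 12.4 to 16.9 in PC and 8.75 to 11.1 in EC, and C overlapped ES1 and ES2 (21.1 to 24.6). The other 2 transcripts differed little from it, at 20.3 and 19.7 CPM in PC and 33.5 and 33.5 CPM in ES3, and the non-member ppt_97786 of the same name had a ratio of 1.32. On the TMM scale none of the 3 passed the fold limit in ES3 against C, with log2 fold changes of 0.61 to 0.75, and all passed it with library totals alone, at 1.77 to 1.90.

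The transcripts with the largest selected ratios included several with uneven libraries. The highest ratio, 3.95, belonged to ppt_130, with 13.0, 11.6 and 6.31 CPM in PC and 0.0809, 3.35 and 2.16 CPM in EC. It had 1 somatic library above 0, at 0.104 CPM, and in C it had 10.8 CPM in replicate 1 and no count in the others. The second, ppt_83580, which carries the term ADP binding and no protein name, had 11.6, 15.9 and 21.0 CPM in PC and 4.69, 2.41 and 6.84 CPM in EC. Its somatic libraries had at most 0.710 CPM and its C libraries no count.

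The third, ppt_87092, was far higher in somatic than in zygotic embryos. It has no protein name and carries the term nutrient reservoir activity, which is used for seed storage proteins. It stood at 98.8, 118 and 160 CPM in ES1, 88.2, 162 and 98.0 CPM in ES2 and 109, 188 and 114 CPM in ES3. PC had 17.7, 20.4 and 13.8 CPM, EC 5.34, 3.56 and 6.93 CPM and C 4.65, 6.60 and 5.10 CPM. By TMM-scaled means C, at 18.2, lay above PC, at 12.3. No somatic library overlapped a zygotic one on either scale, and by CPM the somatic mean was 7.29 times the PC mean. In ES3 against C its log2 fold change was 3.00 ± 0.31 (edgeR adjusted p 4.85e-07). The 7 members with every somatic library above every PC library spanned 1.41 to 7.29 times the PC mean.

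The most abundant members by CPM carried no name. The level in PC was 3131, 3438 and 3224 CPM for ppt_165978, with 2516, 2364 and 2079 CPM in EC and 189, 210 and 295 CPM in C. Its ES1 libraries had 2220, 2133 and 2035 CPM and its ES2 libraries 2214, 2059 and 2149 CPM. ES3 was uneven, with 927 and 1353 CPM in replicates A and B and 2390 CPM in replicate C. The call of ES3 above C (log2 fold change 1.16 ± 0.29, edgeR adjusted p 0.00208) was lost without ES3 replicate C, where the log2 fold change was 0.55, and in the fit of these 2 groups alone.

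The run ppt_220834 to ppt_220836 averaged 829, 1085 and 1500 CPM in PC and 577, 760 and 1014 CPM in EC. All 3 were 13.6 to 16.8 times higher in EC than in C on the CPM scale and 3.09 to 3.83 times on the TMM scale, and were called higher in ES3 than in C, with log2 fold changes of 1.44, 1.37 and 1.75. The transcript ppt_113603 averaged 1362 ± 259 CPM in PC, 963 ± 69.4 in EC and 774 ± 189 in ES3 (SD, n = 3). Its log2 fold change over C of 0.61 did not pass the fold limit. The last member taken, ppt_159676, averaged 1039 ± 44.2 CPM in ES1 and 728 ± 37.0 in PC, and its log2 fold change of ES3 over C of 0.97 lay just under that limit.

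**Figure D4:**
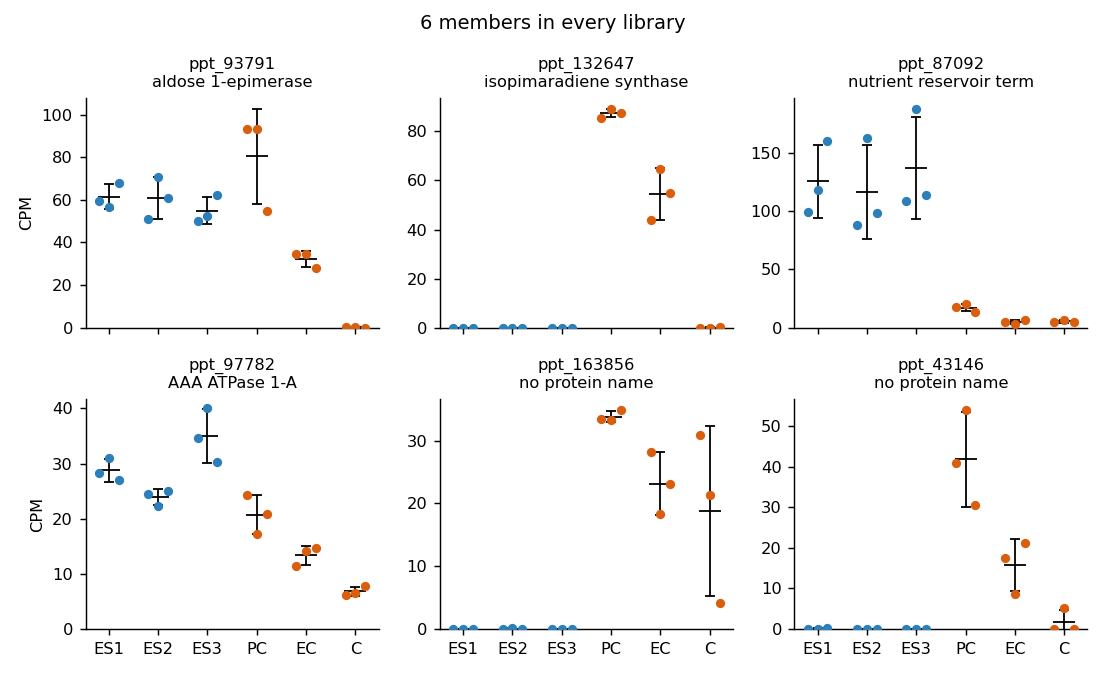
Points are single libraries (blue somatic, orange zygotic), with CPM on the vertical axis from 0, and black bars give the mean ± SD of 3 libraries. The 6 panels show the kinds of somatic level among the members, from 0 in ppt_132647 to above every zygotic library in ppt_87092, and the unequal C libraries of ppt_163856 and ppt_43146.

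The cotyledonary zygotic stage C was not used in the choice of members, but PC and EC were. Counts of C against PC or EC are thus shaped in part by the rule, which the kept transcripts did not have to meet. They are given as a description, and nothing is read from their excess over the kept transcripts. On plain CPM, C was the lowest of the 6 groups for 126 members and every C library lay below every PC library in 148 (against 79.8% of all kept transcripts). Every C library lay below every EC library for 144 of 150 members, where 82.9% of all kept transcripts did the same. Low C values were thus general on that scale, and C was the lowest group for 80.1% of all kept transcripts. On the TMM scale the separation from PC held for 112 members against 40.6% of kept transcripts. That from EC held for 87 of 150 members (58%) against 39.1% of kept transcripts, and C was the lowest group for 86 members (57.3%) against 38.1%. The median log2 ratio of EC to C, after adding 1, was 0.68 for members and 0.05 for kept transcripts on that scale. The summed dividing-cell markers fell over the same stages on plain CPM, and their part in this was not tested.

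Cotyledonary somatic embryos were compared with cotyledonary zygotic embryos to ask whether the steady somatic level ended above or below the zygotic one. ES3 was called higher than C for 60 of 150 members (40%) and lower for 24 (16%), and 66 were not called. Among all 23118 kept transcripts, 29.9% were called higher and 15.1% lower, so the share of lower members was near the background and that of higher members somewhat above it. The median log2 fold change was 0.72 for members and 0.19 for all kept transcripts. Of the 60 higher members, 59 had every ES3 library above every C library on the TMM scale. Of the 24 lower members, 17 had every ES3 library below every C library. The same libraries gave the calls, and no such share was taken over all called transcripts, so nothing is read from these counts.

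The scale decided how many members were higher. With the deposited column totals as library sizes, 121 members were called higher in ES3 and 16 lower, where 75.8% of all kept transcripts were called higher. The median log2 fold change then was 2.36 for members and 1.84 for all kept transcripts. Without ES3 replicate C, 52 members were higher and 25 lower, where 6728 and 3679 of all 23118 kept transcripts were.

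**Figure D5:**
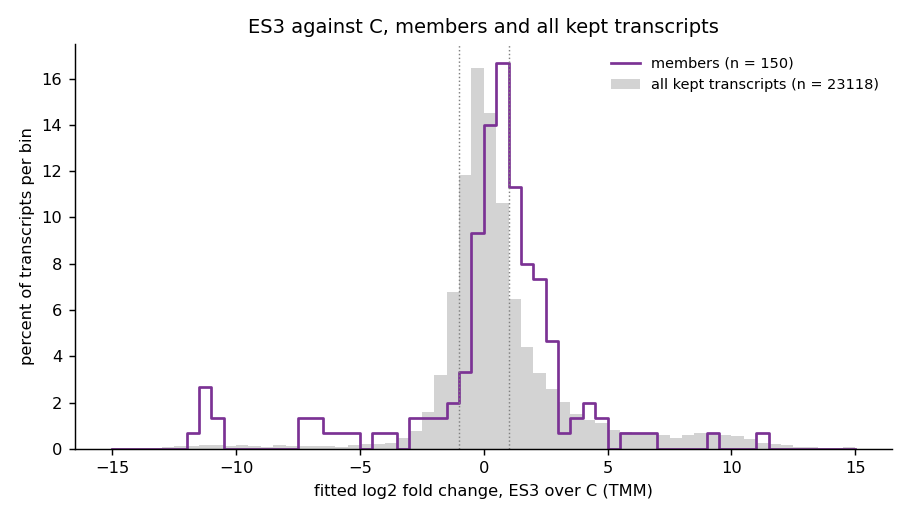
The horizontal axis gives the fitted log2 fold change of ES3 over C in bins of 0.5 and the vertical axis the percent of transcripts per bin, for the 150 members (line) and all 23118 kept transcripts (grey). Dotted lines mark the fold limit of 1 in either direction. Members centre at 0.72 and have a separate group below -5, which holds members with few or no counts in ES3.

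Calls differed with the somatic level of a member. Of the 24 members under 1 CPM in the mean of every somatic stage, 18 were called lower in ES3 and 4 higher. Of the 75 with a somatic mean below EC, 30 were higher and 5 lower. Of the 31 between EC and PC, 16 were higher and 1 lower, and of the 20 above PC, 10 were higher and 0 lower. These counts describe the classes, which were formed from somatic levels that enter the comparison, and carry no test.

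Of the members called lower, ppt_209366, ppt_163856 and ppt_130 had the lowest fitted log2 fold changes. The transcript ppt_209366 had 29.4, 31.3 and 25.2 CPM in PC, 18.1, 11.1 and 11.7 CPM in EC and 1.13, 3.84 and 3.36 CPM in C, with no count in any somatic library. On the TMM scale it was at least 338-fold lower in ES3 than in C (edgeR adjusted p 1.84e-06). The transcript ppt_163856 had 33.4, 33.3 and 34.9 CPM in PC, 28.2, 18.3 and 23.1 CPM in EC and an uneven 30.9, 21.3 and 4.12 CPM in C. After TMM scaling its C libraries, at 102, 71.6 and 13.7, averaged 62.5 against 23.9 in PC. Its somatic libraries had at most 0.155 CPM, and its log2 fold change of ES3 over C was -11.48 ± 1.01 (edgeR adjusted p 9.39e-08).

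Of the 24 lower calls, 6 rested on 1 C library each. In ppt_130 that was replicate 1, with 842 counts against 0 in both others. In ppt_43146 it was replicate 2, with 471 counts against 0, and in ppt_66860 replicate 3, with 563 counts against 0. The remaining 3 were ppt_89112, with 146 counts in replicate 3, ppt_205293, with 158 in replicate 1, and ppt_229723, with 8 in replicate 2. Each of the 6 lost its call without that library. Elsewhere ppt_43146 was high in PC, with 41.1, 54.0 and 30.6 CPM, lower in EC, with 17.5, 8.67 and 21.3 CPM, and at most 0.132 CPM in somatic libraries. The C libraries were thus unequal for these transcripts, and more generally the highest C library exceeded the lowest more than 5-fold in 7 of the 113 members with at least 1 CPM in C.

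At the other end, 7 members had no count in any C library, and 6 of these were called higher in ES3. In 4 of them, ppt_83580, ppt_238475, ppt_192193 and ppt_192194, ES3 itself averaged 0.101 to 0.259 on the TMM scale, only 2.44 to 6.29 times the floor of C. The adjusted p of ppt_83580, ppt_238475 and ppt_192194 rose to 0.0839, 0.0677 and 0.093 under an alternative, from edgeR values of 0.0214, 0.0105 and 0.0173. The lowest values among the alternatives were 0.000439, 0.000381 and 0.000771. The other 2 had more counts. The transcript ppt_223365 had 19.0, 16.0 and 15.2 CPM in PC, 8.25, 14.9 and 6.54 CPM in EC and 5.38, 7.86 and 7.29 CPM in ES3. Against a floor of 3 counts over the C libraries it was at least 179-fold higher in ES3 (edgeR adjusted p 7.23e-09). The transcript ppt_236389 had 40.3, 43.0 and 34.2 CPM in PC, 24.0, 29.7 and 17.6 CPM in EC and 2.24, 1.88 and 1.63 CPM in ES3, at least 49.6-fold above C (edgeR adjusted p 1.15e-07).

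Taking the mean of the 3 somatic stages against C gave like counts. Again 60 members were higher and 24 lower, against 32.3% and 20.3% of all kept transcripts. The calls of 83 members matched those of ES3 against C (59 higher and 24 lower), and no member was called in opposite directions. Both comparisons share the C and ES3 libraries. With library totals alone 116 members were higher and 19 lower, where 14741 and 1512 of all 23118 kept transcripts were. With the deposited column totals 123 members were higher and 18 lower, where 17557 and 1109 of all kept transcripts were.

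Calls of other transcripts that fell from PC to EC are set beside those of the members, as a description without a test. Among the 980 steady candidates with a lower ratio, 70 (7.14%) were called higher and 48 (4.9%) lower in ES3 against C, with a median log2 fold change of -0.02. Among the 2963 that met the zygotic criteria but were not steady in somatic embryos, 1310 (44.2%) were higher and 60 (2.02%) lower, with a median of 0.82. The share of higher calls in this set was near the 40% of the members, so it was not particular to them. Its share of lower calls was under their 16%, but the rule shapes this difference. Transcripts near 0 in every somatic stage meet the steady limit through the added 1 CPM. Of the 24 lower calls among members, 18 fell on those under 1 CPM in every somatic stage. Nothing is read from the difference.

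The lists of named functions can place only the 11 members with an informative name, so an absence from the members is not read from them. Over all transcripts, 1130 of the 4093 that met the zygotic criteria were steady in somatic embryos. The counts below use the values of the rule and carry no test. Of 97 named transcripts of DNA replication and cell division, 77 met the zygotic criteria of level and separation, and 0 of these were steady in somatic embryos. Of 64 histone and chromatin transcripts, 35 met the zygotic criteria and 2 of those were steady, with ratios too low to be taken. Of 107 transcription factors, 20 met them and 1 was steady. Of 68 hormone-related transcripts, 9 met them and 4 were steady, which are the 4 receptors. In ES3 against C, 45 of 67 tested hormone-related transcripts were called higher and 6 lower, against 29.9% and 15.1% of all kept transcripts. Such counts varied among the lists and were not particular to hormones. Of 80 defence transcripts 63 were higher and 3 lower, of 76 cell wall ones 51 and 3, and of 34 terpenoid ones 7 and 7. Cell wall, storage and defence proteins, receptor kinases, transposon proteins and organelle genes gave 0 steady candidates, transporters 2, and phenylpropanoid enzymes and redox enzymes 1 each. The names come from tables the study built on these samples, so the lists are not independent evidence.

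The members may be less numerous as genes than as transcripts, though no sequence was used to check this. By identifier, 70 of the 150 fell into 25 runs with gaps of at most 3 in number, the longest holding 6. Among transcripts with informative names, 591 of 791 neighbouring pairs (74.7%) shared a name. The 45 neighbouring pairs of members had a median correlation of 0.99 over the 18 libraries, which share depth and stage differences and possibly reads. With 1 member kept per run, a count added after seeing the data, 105 remained, of which 41 were called higher and 22 lower in ES3 against C. Among all kept transcripts, which were not reduced to 1 per run, 29.9% were higher and 15.1% lower.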

How the data were processed

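RNA of 18 embryo libraries (6 stages, 3 libraries each) was sequenced as paired-end reads. The deposited counts are whole numbers per transcript: per the paper's methods the authors mapped reads to a maritime pine transcriptome with BWA and counted them with a script, and bcl2fastq is named in the submitters' processing notes. Tool versions and the assembly release: not given in the sources used here. Library totals set a floor of 3 counts per library, which covers counting error only. The methods speak of technical replicas of independent samples and the labels do not separate them, so p-values may measure technical spread.

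Members were found on CPM by the stated rule. The fit held the 23118 transcripts for which 6 libraries or more exceeded 2 CPM, run over all groups with edgeR 4.0.16 (R 4.3.3), TMM scaling and the quasi-likelihood F-test. A call needed a Benjamini-Hochberg adjusted p under 0.05 over all 23118 transcripts and a log2 fold change beyond 1. SE was taken from the log2 fold change and F (their quotient after taking the root of F). The code was tested on simulated data. Alternatives included other scalings and filters, DESeq2 1.42.0, other designs and each library left out. Keeping 1 member per identifier run was added after seeing the data.

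Named members are all with an informative protein name (up to 30, by ratio), the 5 with the largest ratio, the 5 highest in PC, the 3 highest in somatic embryos, and the 3 highest and 3 lowest log2 fold changes of ES3 over C among calls. Further identifiers, such as those with 1 C library or beside a threshold, were named after their values were seen. The members and the gene lists were chosen with earlier results of these data known. Protein names come from the study's supplementary tables, of which some sheets were held only in part. No genome or transcript sequence was used here.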

Additional observations from a re-analysis of the deposited data

How the results depend on the processing

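The choice of scaling moved the counts of calls. ES3 was called higher than C for 112 members under library size as the only scaling and 121 under deposited column totals, against 60 under TMM, and the median log2 fold change of members became 1.86 and 2.36, against 0.72. The mean of the somatic stages was called higher for 116 and 123 members under these scalings, against 60. All kept transcripts moved likewise. Of 23118, 13982 and 17531 were called higher in ES3, against 6914 under TMM. For the somatic mean 14741 and 17557 were, against 7477. In the fit of ES3 and C alone 15 members were lower, against 24. Leaving out 1 library at a time gave 52 to 64 members higher and 20 to 25 lower in ES3 against C, a median of 0.67 to 0.79, and 58 to 63 higher and 22 to 25 lower for the somatic mean. With 1 member per run of identifiers, chosen after seeing the data, 41 were higher and 22 lower in both comparisons. The other filters, tests and thresholds kept both counts within 1.5 times of their main values. Under the filter of over 1 CPM in at least 3 libraries, 33380 of 54536 transcripts were lower in ES3 than in C, with 63 members higher and 23 lower.

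The choice of members changed with the settings of the rule. Of the 150, 67 were chosen again on TMM-scaled CPM, 55 with a tighter steady limit and 72 with a limit of 2, 84 with a PC minimum of 5 CPM and 104 with 20, 137 and 121 with offsets of 0.5 and 2, and 89 to 146 with 1 library left out, lowest without EC 1 (89) and PC 2 (90). Among named members with counts in both groups, 1 value turned direction: ppt_43146 ranged from -7.81 to 3.59 with 1 library left out, the latter (not called) without C replicate 2. Of 234 such values, 204 kept their direction and their side of the threshold, 25 passed it newly and 4 lost it.

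The labels do not state whether replicates are paired across stages, and ES3 (letters) and C (numbers) share no label. Among 18 pairs with the same label the correlation of deviations ran from -0.43 to 0.42 and passed 0.1 in 5. Among 36 pairs with unlike labels it ran from -0.44 to 0.59 and passed 0.1 in 12. These values cannot decide whether libraries are paired. With a replicate block within embryo type, 60 members were higher and 22 lower in ES3 against C, with a median of 0.73, and 60 and 24 for the somatic mean. Depth limits the members with few counts, since 33 were under 1 CPM in every C library and 4 had no somatic count.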
